A study of Sus scrofa with 37 samples.

Results

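The genes of cholesterol synthesis and of its feedback control were followed in pancreas and in cultured islets of pigs. The 8 genes were HMGCS1 (ENSSSCG00000016872), FDFT1 (ENSSSCG00000026044), SQLE (ENSSSCG00000005970), LSS (ENSSSCG00000021418), MSMO1 (ENSSSCG00000008857), DHCR7 (ENSSSCG00000021181), SREBF2 (ENSSSCG00000026092) and INSIG1 (ENSSSCG00000016420). They were taken by gene symbol, looked up from the Ensembl pig IDs of the count tables, and are 8 of 25880 genes listed there. The first 6 are enzymes and the last 2 are regulators. None of the 8 is itself a receptor that takes up cholesterol, so uptake is described from a separate list.

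RNA was sequenced from pancreas pieces of 50 mg, cut from the duodenal lobe when the organ was retrieved, and from islets purified out of pancreatic tissue and kept floating freely in culture for 7 days. Each sample was labelled High or Low for islet density, and how density was measured is not given in the labels. The 17 pancreas libraries were 8 High and 9 Low, and the 18 islet libraries were 8 High, 9 Low and 1 with no density label (the islets of animal 12AS51). Within a tissue each library came from a separately coded animal, and 16 animals gave both tissues. Breed, sex and age are not given in the labels. The islet samples of 12AS51 and 11KS28 carry pancreas as their source name and were taken as islets from their titles. With both left out, 6 of the 8 genes were still called between tissues, where 7808 of 12181 genes were. The 12AS51 islets have no density label and are in no density comparison, so there only the 11KS28 islets were left out. None of the 8 was then called for density in islets, where 0 of 12216 genes were. In the interaction 2 of the 8 were called, where 6027 of 15019 genes were. For 4 animals (12FS135, 12FS161, 15LS26 and 16IS5) the density label differed between the tissues. No drug, diet or genetic change is named for any group, and the islets differ from the pancreas both in cell content and in having been cultured.

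Cholesterol is made from acetyl-CoA through mevalonate, squalene and lanosterol. The pathway is switched on by SREBP2, the transcription factor encoded by SREBF2. When membranes are poor in sterol, SCAP carries SREBP2 from the endoplasmic reticulum to the Golgi, where it is cut and released to activate the enzyme genes and genes of lipoprotein uptake. When sterol is plentiful, INSIG proteins hold SCAP back. In beta cells, membrane cholesterol is known to affect insulin granules and insulin secretion.

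Library totals limited what could be seen for these genes. The islet libraries held 3237653 to 6702589 counts and 10 of the pancreas libraries held 1855075 to 3922006, whereas 7 pancreas libraries held only 265000 to 536014. All 7 shallow libraries were labelled Low, and 6 of them came from the 6 animals whose code begins with 14. In the shallow libraries 3 counts, the number that a count of 0 allows, equal 5.60 to 11.3 CPM (a gene's counts divided by its library's total and multiplied by 1000000). The islets of 12AS51 also stood apart, with 87.8% of their counts in 10 genes and a sum of 38.0 CPM over the 8 genes, against 228 to 519.6 CPM in the other islets. Islet markers, 15 of 15 with a row, summed to 54918 to 97956 CPM in the labelled islets, to 8512 CPM in the 12AS51 islets, and to 350.4 to 15736 CPM in pancreas. Acinar markers, 10 of 12 with a row, summed to 3.98 to 487 CPM in islets, to 10407.5 to 28585 CPM in the shallow pancreas libraries and to 93061 to 247761 CPM in the other 10. No listed marker with a row was at 0 in all libraries of either tissue.

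The first comparison was islets against pancreas, whatever the density label. Of the 8 genes, 4 were higher in islets (HMGCS1, MSMO1, SQLE and SREBF2) and 2 were lower (INSIG1 and LSS). FDFT1 and DHCR7 did not pass. All 8 were abundant enough to be tested, and the median log2 fold change over them was 0.29, against -0.01 over all 12339 genes tested. The tissues differed widely: 62.6% of all genes tested passed, 31.1% higher and 31.5% lower in islets, and the 6 of 8 is read against that background. With library totals alone, 71.0% of the genes that passed were higher in islets, against 49.6% with TMM scaling, and the median over all genes tested moved to 0.47. Calls are from edgeR's quasi-likelihood test with TMM scaling, at a Benjamini-Hochberg adjusted p under 0.05. CPM values below are per library total, while fold changes use TMM-scaled library sizes. Counts of animals with higher islets, and ranges without overlap, are given below for single genes. The share of all genes with the same pattern was not taken. In these bulk samples, fewer cells of a type and less RNA per cell cannot be told apart. The acinar and islet marker sums given above moved with the tissue, and their part in these differences was not tested, because the marker sums separate the tissues almost as the labels do.

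HMGCS1, the cytosolic HMG-CoA synthase that commits acetyl-CoA units to mevalonate, ran from 2.39 through a median of 82.0 to 136 CPM over 18 islet libraries. In the 17 pancreas libraries it ran from 0 through 11.7 to 36.1 CPM. The ranges met only through the low islets of 12AS51 and of 15AS28 (24.7 CPM), and within animals the islets were above the pancreas in 15 of 16. On TMM-scaled CPM they were above it in 16 of 16. The 12AS51 islets were then at 19.36 and those of 15AS28 at 29.96, with pancreas reaching 32.9. The 19.36 rests on 16 counts and on a TMM factor of 0.123, against 0.83 to 1.54 in the other islets. The pancreas of 12AS51 was at 16.09 on that scale. The difference was 3.60-fold (log2 1.85, SE 0.21, edgeR adjusted p = 7.28e-10). In the shallow pancreas libraries HMGCS1 rested on 0 to 9 counts, and without those libraries, where 67.1% of 12607 genes passed, the log2 difference was 1.65.

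Next in the pathway, FDFT1, the squalene synthase that starts the branch leading only to sterols, ran from 2.54 through 53.7 to 98.5 CPM in islets. In pancreas its lowest, median and highest values were 13.1, 33.96 and 72.1 CPM. The groups overlapped broadly, and the log2 difference was -0.13 (SE 0.19, edgeR adjusted p = 0.559). FDFT1 went opposite ways within the density labels. Among High libraries it was lower in islets (log2 -0.55, edgeR adjusted p = 0.0269), and among Low libraries its value was 0.46 (edgeR adjusted p = 0.112).

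SQLE, the squalene epoxidase that makes the first oxygenation of the pathway, ran from 1.19 through 29.3 to 43.1 CPM in islets. In pancreas it ran from 2.50 through 8.50 to 33.7 CPM. Most islet libraries lay above most pancreas libraries, with islets higher in 14 of 16 animals (15 of 16 on TMM-scaled CPM), although the ranges overlapped. It was 1.93-fold higher in islets (log2 0.95, SE 0.20, edgeR adjusted p = 9.29e-05).

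LSS, lanosterol synthase, which folds squalene epoxide into the sterol ring system, had nearly the same CPM in both tissues, with 8.50, 34.6 and 48.0 CPM as lowest, median and highest in islets. In pancreas these were 13.9, 32.2 and 102 CPM. LSS was called 1.48-fold lower in islets (log2 -0.56, SE 0.17, edgeR adjusted p = 0.00477) and on TMM-scaled CPM its medians were 27.4 in islets and 37.0 in pancreas. The call was lost with library totals alone (log2 -0.18, edgeR adjusted p = 0.491), with no low-count filter (-0.15, edgeR adjusted p = 0.473), without the code-14 animals (-0.42, edgeR adjusted p = 0.0609) and with an acinar covariate (-1.44, edgeR adjusted p = 0.0849).

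MSMO1, a methylsterol monooxygenase that helps remove methyl groups from sterols downstream of lanosterol, ran from 0.895 through 22.3 to 45.0 CPM in islets. In pancreas it ran from 0 through 3.23 to 13.3 CPM. Islets were above pancreas in 15 of 16 animals, the exception being 12AS51, and the ranges overlapped through 12AS51 and 15AS28. On TMM-scaled CPM islets were above pancreas in 16 of 16. There the 12AS51 islets, at 7.26, lay below the highest pancreas value of 10.28, and the labelled islets started at 10.76. The 7.26 rests on 6 counts and on the 12AS51 TMM factor of 0.123. The difference was 3.80-fold (log2 1.93, SE 0.25, edgeR adjusted p = 8.66e-09). MSMO1 was at 0 in 5 of the 7 shallow pancreas libraries and at 1 count in the other 2, and without the shallow libraries the log2 difference was 1.77.

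DHCR7, the reductase that makes cholesterol from dehydrocholesterol, was scarce, from 0.597 through 5.86 to 9.84 CPM in islets. In pancreas it ran from 1.27 through 6.88 to 26.2 CPM. The ranges overlapped, and the highest pancreas values were those of shallow libraries. The log2 difference was -0.55 (SE 0.28, edgeR adjusted p = 0.0894), and it was 0.09 without the shallow libraries, in which DHCR7 had 3 to 8 counts. DHCR7 passed among Low libraries (log2 -1.22, edgeR adjusted p = 0.0138) and with upper-quartile scaling (-0.73, edgeR adjusted p = 0.0408).

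**Figure D1:**
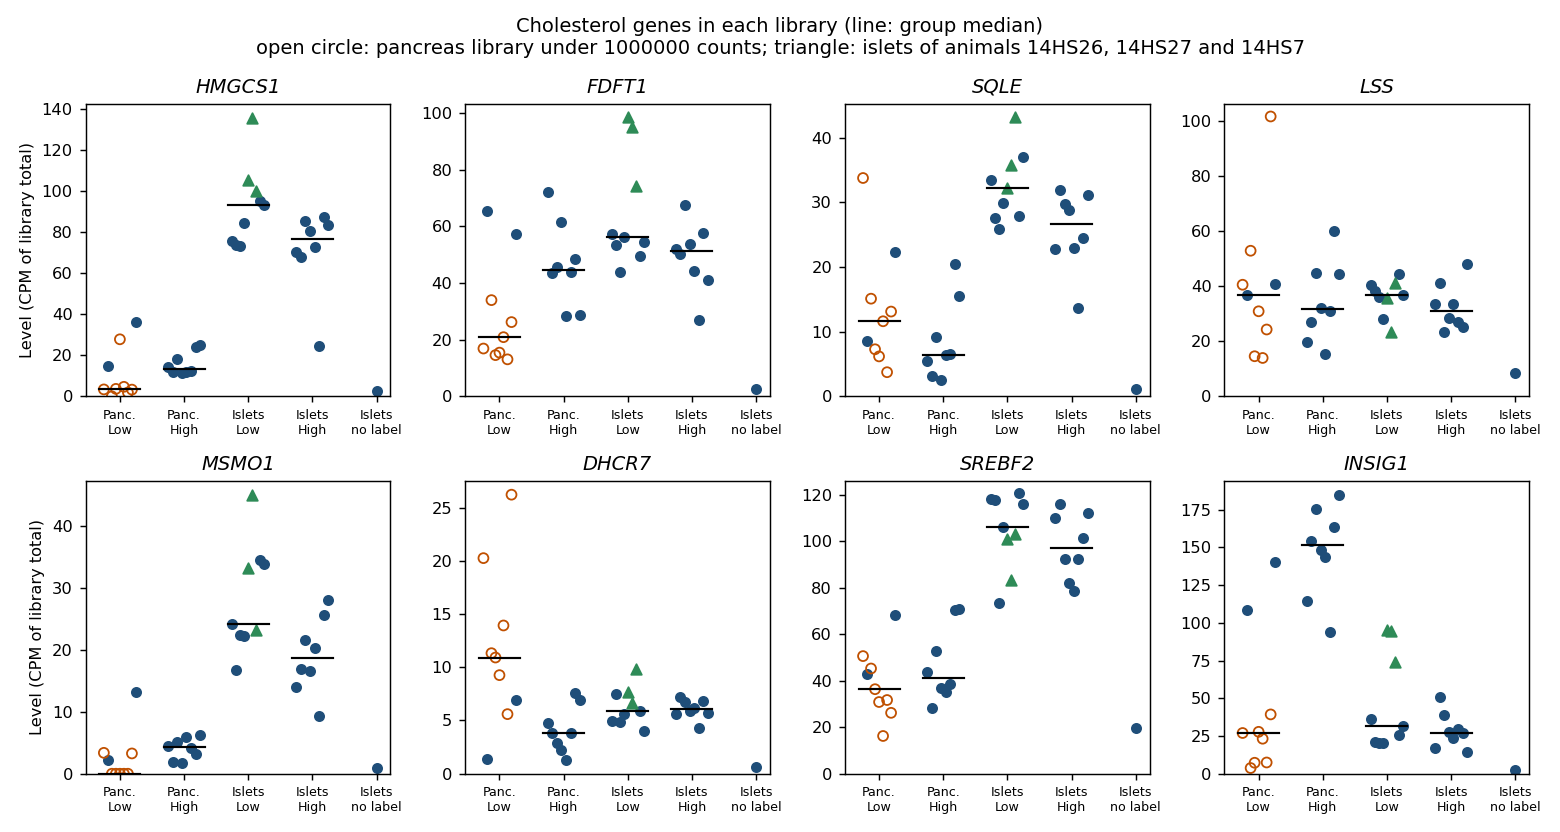
Level of each of the 8 genes, in CPM of the library total on a linear axis from 0, in every library by tissue and density label; each mark is 1 library, lines are group medians, open circles are the 7 shallow pancreas libraries, and triangles are the islets of 14HS26, 14HS27 and 14HS7. HMGCS1 and MSMO1 sit higher in the labelled islets, while INSIG1 is highest in the 10 deeper pancreas libraries (94.2 to 185 CPM).

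SREBF2, which encodes the transcription factor itself, ran from 19.5 through 102 to 121 CPM in islets. In pancreas it ran from 16.2 through 38.5 to 70.9 CPM. Apart from the 12AS51 islets, every islet library (from 73.3 CPM) was above every pancreas library, but on TMM-scaled CPM the ranges overlapped, at 56.3 to 112 in those islets and 23.6 to 76.0 in pancreas, with the 12AS51 islets at 158.5. How many of all genes separated the tissues in this way on CPM was not taken. The difference of SREBF2 was 1.63-fold (log2 0.70, SE 0.14, edgeR adjusted p = 4.48e-05).

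INSIG1, the endoplasmic reticulum protein that retains SCAP and is itself an SREBP target, went the other way. It ran from 2.39 through 27.3 to 95.4 CPM in islets and from 3.77 through 108 to 185 CPM in pancreas. The pancreas values fell into separate levels, with the 10 deeper libraries at 94.2 to 185 CPM and the 7 shallow libraries at 3.77 to 39.3 CPM, on 1 to 12 counts. INSIG1 was 3.84-fold lower in islets (log2 -1.94, SE 0.34, edgeR adjusted p = 4.33e-06). Against the deeper pancreas libraries alone the log2 difference was -2.48. Islets were above pancreas in 6 of 16 animals (5 of 16 on TMM-scaled CPM), and all 6 had a shallow pancreas library. Among High libraries the log2 difference was -2.92, and among Low libraries it was -0.53 (edgeR adjusted p = 0.28).

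With the animal as a block, so that each pig's islets were set against its own pancreas where both were sequenced, the same 6 genes passed in the same directions, where 55.4% of 12138 genes passed. HMGCS1 was then at log2 2.04, MSMO1 at 2.21, SQLE at 0.995, SREBF2 at 0.69, INSIG1 at -1.80 and LSS at -0.59. With acinar marker level as a covariate INSIG1 changed sign, to 3.32 (SE 1.45), and did not pass (edgeR adjusted p = 0.0543). SQLE (log2 0.34, edgeR adjusted p = 0.773) and SREBF2 (0.90, edgeR adjusted p = 0.201) did not pass either. Acinar level separates the tissues almost as the labels do, so this fit cannot tell tissue from acinar content.

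The rest of the pathway was taken as lists, each described by its counts. Of 13 other enzymes of cholesterol synthesis, 10 were tested, 4 were higher in islets and 2 lower, with a median log2 difference of 0.17; 62.6% of all genes passed, 31.1% higher and 31.5% lower. CYP51A1, which demethylates lanosterol, was at log2 1.41, IDI1, the isopentenyl diphosphate isomerase, at 1.04, ACAT2, the cytosolic thiolase, at 0.65, and SC5D, a sterol desaturase, at 0.60. The 2 that were lower were MVK, the mevalonate kinase, at -1.56 and MVD, the mevalonate diphosphate decarboxylase, at -1.34. MVK and MVD had edgeR adjusted p = 0.000966 and 3.91e-06. In the order of the route HMGCS1 stands before MVK and MVD, and IDI1 after them.

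Of 6 other regulators tested among 7 listed, none was higher in islets, and SCAP, the escort of SREBP, was lower (log2 -0.53, edgeR adjusted p = 2.8e-05). Over all genes tested, 31.1% were higher and 31.5% lower in islets. SCAP did not pass with library totals alone or with no low-count filter. SREBF1, which encodes the SREBP more active on fatty acid genes, was at -0.26 (edgeR adjusted p = 0.301). INSIG2, the second INSIG protein, was at -0.24 (edgeR adjusted p = 0.387). With library totals alone the signs of SREBF1 and INSIG2 turned, to 0.11 and 0.35.

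Of 9 genes listed for uptake and lysosomal release of cholesterol, 8 were tested, 4 were higher in islets and 2 lower, with a median log2 difference of 0.39, beside 31.1% and 31.5% of all genes. Lower in islets were SCARB1, the HDL receptor, at -1.85, and STARD3, a late endosomal sterol carrier, at -1.46. Higher in islets were NPC2, which hands cholesterol on inside lysosomes, at 1.92, STARD4, a cytosolic sterol carrier, at 1.74, LIPA, the lysosomal acid lipase, at 1.39, and VLDLR, a lipoprotein receptor, at 1.04.

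The counts of the next 3 lists also stand beside 31.1% of all genes tested higher in islets and 31.5% lower. Of 11 genes of efflux, storage and oxysterol handling 7 were tested, with a median of -0.01. SOAT1, which esterifies cholesterol for storage, was higher in islets (log2 2.35, edgeR adjusted p = 5.37e-12), and ABCA1, which exports cholesterol, was lower (log2 -0.80, edgeR adjusted p = 2.05e-05). Fatty acid synthesis, which shares SREBP control and the acetyl-CoA supply, had 8 of 10 tested genes higher and 1 lower, from 12 listed, with a median of 1.57. ACLY, which makes cytosolic acetyl-CoA, was at log2 3.87, SCD, the stearoyl-CoA desaturase, at 3.22, ME1, the malic enzyme, at 1.89, and the desaturases FADS2 at 1.71 and FADS1 at 1.70. ACSS2, which makes acetyl-CoA from acetate, was lower at -1.14. ACLY and SCD were higher in the islets of all 16 animals. Of 9 genes of the isoprenoid branches 8 were tested, with a median of 0.26. NUS1 and DHDDS, the subunits of the dolichol-making enzyme, were higher at 1.07 and 0.66, PGGT1B, a prenyltransferase subunit, was higher at 0.79, and FNTB, the farnesyltransferase beta subunit, was lower at -0.85. FDPS and TM7SF2, both enzymes of the route, were too scarce to be tested. Each of the 25 genes named here outside the 8, and called in this comparison, was refitted under each alternative in which it could be fitted. Of 422 refits, 398 still called the gene, and ACAT2, FADS2 and DHDDS reversed in the fit with the acinar covariate. The genes were picked from those that passed, and the refits reuse the same libraries, so repeat calls are in part built in and are no independent support.

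**Figure D2:**
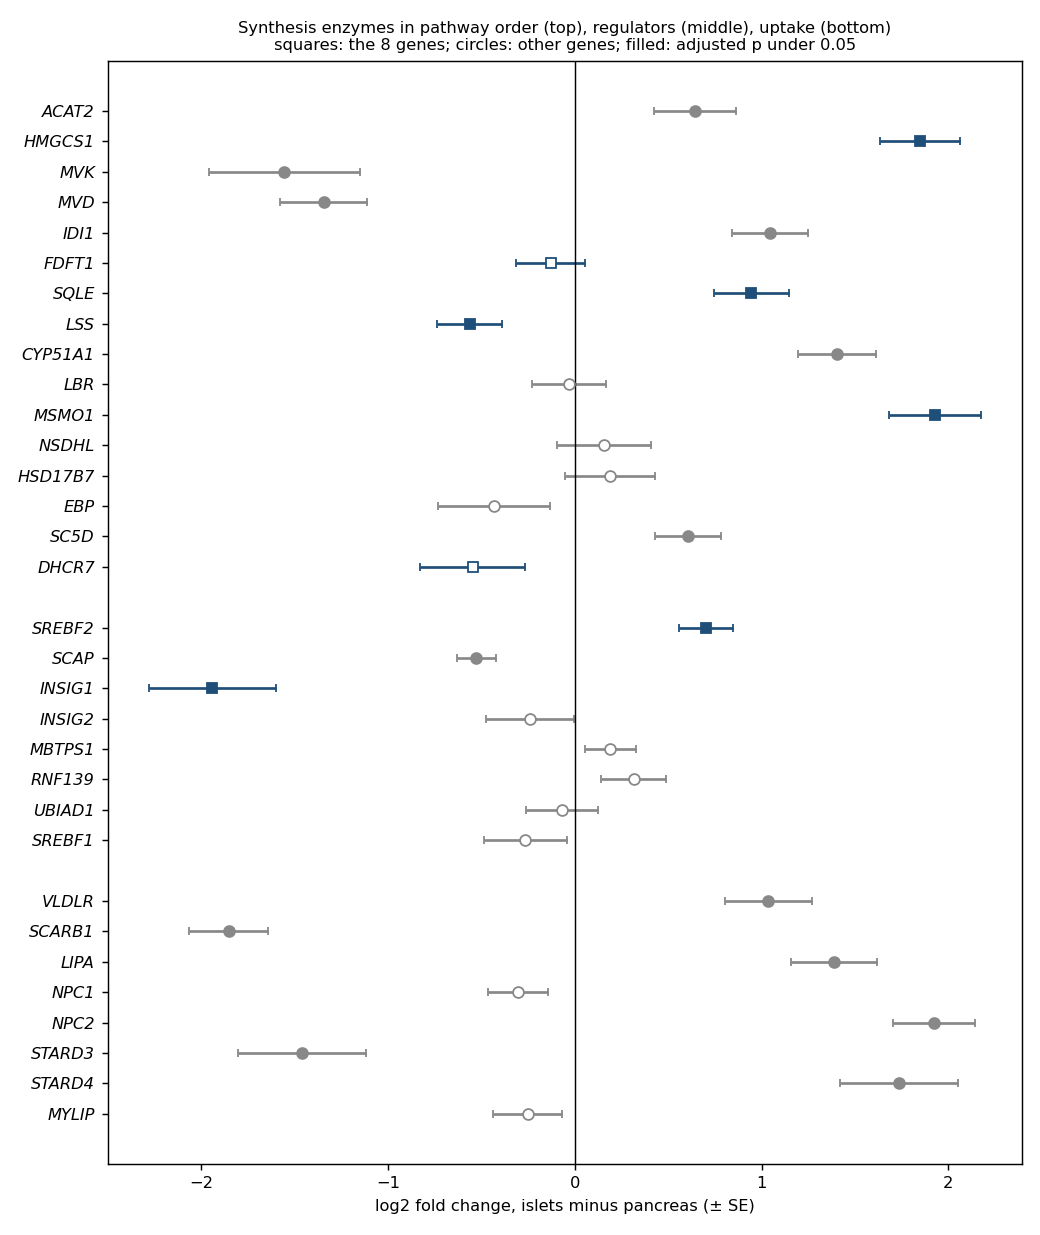
Log2 fold change of islets against pancreas with its standard error for the tested genes of synthesis (top, in pathway order), regulation (middle) and uptake (bottom); values right of 0 are higher in islets, squares are the 8 genes, circles other genes, and filled marks passed edgeR's adjusted p of 0.05. MSMO1 (1.93) and HMGCS1 (1.85) lie to the right, and INSIG1 (-1.94), MVK (-1.56) and MVD (-1.34) to the left.

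The second comparison was High against Low islet density in the pancreas pieces. INSIG1 was 3.55-fold higher in High (log2 1.83, SE 0.38, edgeR adjusted p = 0.000835) and DHCR7 was lower (log2 -1.46, SE 0.50, edgeR adjusted p = 0.0225). These are 2 of 7 genes tested, where 40.3% of 10634 genes passed, 18.8% higher and 21.5% lower in High. Of the genes that passed, 46.6% were higher in High, against 34.6% with upper-quartile scaling and 22.4% with library totals alone. MSMO1 was too scarce to be tested here. This comparison was tied to depth, since 7 of the 9 Low libraries and none of the 8 High libraries were shallow.

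INSIG1 ran from 94.2 through 151 to 185 CPM in High pancreas. The deeper Low libraries, 12FS161 and 15LS30, had 108 and 141 CPM, inside the High range, and the 7 shallow Low libraries had 3.77 to 39.3 CPM. On TMM-scaled CPM these deeper Low libraries were at 87.9 and 93.0, the first just below and the second just inside the High range of 90.4 to 180.9. The shallow ones were at 3.63 to 36.1. Without the shallow libraries the log2 difference was 0.74 (SE 0.257, edgeR adjusted p = 0.389), and none of 13217 genes passed, with 1222 at an unadjusted p under 0.05. With a factor for the first digits of each animal's code it was 1.02 (edgeR adjusted p = 0.197), and with acinar level as a covariate 0.18 (edgeR adjusted p = 1). The acinar sums of the shallow libraries all lay below those of the deeper ones.

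DHCR7 ran from 1.27 through 3.81 to 7.55 CPM in High pancreas and from 1.34 through 10.9 to 26.2 CPM in Low. The deeper Low libraries had 1.34 and 6.90 CPM, within the High range, and the shallow libraries 5.60 to 26.2 CPM on 3 to 8 counts. Without the shallow libraries the DHCR7 difference was 0.51 (edgeR adjusted p = 0.839). It also missed the threshold without 12FS133 (-1.21, edgeR adjusted p = 0.0555) or without 14HS7 (-1.24, edgeR adjusted p = 0.0688), and with limma-voom (-0.51, adjusted p = 0.463), no low-count filter (-0.88, edgeR adjusted p = 0.105) or a filter at 1 CPM (-1.03, edgeR adjusted p = 0.059).

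The other enzymes and SREBF2 did not pass. FDFT1 had medians of 44.7 CPM in High and 20.9 CPM in Low, with High from 28.3 to 72.1 and Low from 13.1 to 65.3 CPM (log2 0.65, edgeR adjusted p = 0.0622). FDFT1 passed when any of 5 single libraries (12FS161, 15LS26, 15LS29, 16CS60 or 16IS5) was left out, and with no low-count filter (1.09, edgeR adjusted p = 0.0113) or a filter at 1 CPM (0.94, edgeR adjusted p = 0.0207); its 7 shallow libraries held 4 to 9 counts each. HMGCS1 ran from 11.4 through 13.3 to 25.1 CPM in High and from 0 through 3.64 to 36.1 CPM in Low (log2 0.42, edgeR adjusted p = 0.385). SQLE ran from 2.50 through 6.43 to 20.5 CPM in High and from 3.73 through 11.6 to 33.7 CPM in Low (log2 -0.70, edgeR adjusted p = 0.157). For each of these genes the High range overlapped the Low range.

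LSS had medians of 31.6 CPM in High and 36.7 CPM in Low (log2 -0.23, edgeR adjusted p = 0.545), and SREBF2 had medians of 41.2 and 36.4 CPM (log2 0.21, edgeR adjusted p = 0.481). Among animals labelled alike in islets and pancreas LSS passed (log2 -0.87, edgeR adjusted p = 0.0283). MSMO1 was between 1.67 and 6.20 CPM in High and between 0 and 13.3 CPM in Low. The deeper Low library of 15LS30 held the highest HMGCS1 and MSMO1 of all pancreas libraries, at 36.1 and 13.3 CPM. Its islet markers summed to 15736 CPM, against at most 3337 CPM in the other pancreas libraries, and their part in these values was not tested.

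The lists held genes that passed in either direction. Their counts are read against all 10634 genes tested, of which 18.8% were higher and 21.5% lower in High. Of 9 other synthesis enzymes tested, 2 were higher in High (IDI1 at log2 1.13 and SC5D at 0.87) and 3 lower (MVK at -2.50, ACAT2 at -1.08 and NSDHL, a sterol dehydrogenase, at -0.83). Among 5 regulators none passed, with SREBF1 at -0.58, SCAP at -0.15 and INSIG2 at 0.74; SCAP passed among animals labelled alike (-0.75, edgeR adjusted p = 0.0291) and INSIG2 with no low-count filter (1.04, edgeR adjusted p = 0.0499). Among 7 uptake genes VLDLR, at 0.94, and MYLIP, a ubiquitin ligase acting on lipoprotein receptors, at 0.78, were higher, and STARD3, at -1.56, was lower.

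Among 7 efflux and storage genes SOAT2, the second cholesterol-esterifying enzyme, at -3.81, and NR1H2, an oxysterol-sensing nuclear receptor, at -0.87, were lower in High. For these lists too, the shares over all genes tested were 18.8% higher and 21.5% lower in High. Among 9 fatty acid genes 5 were lower and none higher: FADS2 at -1.76, SCD at -1.08, ACSS2 at -0.97, and the elongases ELOVL5 at -0.92 and ELOVL6 at -0.89. Among 7 isoprenoid genes COQ2, of coenzyme Q synthesis, at 1.02, NUS1 at 0.99, PGGT1B at 0.74 and GGPS1, which makes geranylgeranyl diphosphate, at 0.71 were higher, and DHDDS, at -0.69, was lower. Without the shallow libraries 8 High libraries were set against 2 Low ones, and no gene passed. In that fit 18 of these 20 list genes kept the sign of their difference, 8 of them at 0.5 or more of its size. STARD3 and NR1H2 turned to 0.33 and 0.058. The genes were picked because they passed with these same libraries included, so keeping the sign is in part built in. The share of all genes that kept theirs was not taken. IDI1 was at 1.32, SCD at -1.10 and SOAT2 at -1.46 in that fit, whereas MVK was at -0.29 and FADS2 at -0.097. Each of the 20 was also refitted under the other alternatives in which it could be fitted. Of 245 refits in all, 115 still called the gene, and 0 of the 20 were called in every one. In at least 1 refit 8 of the 20 reversed, among them MVK, ACAT2, VLDLR, MYLIP, FADS2 and NUS1 with the acinar covariate. That covariate fit called 0 of 10634 genes.

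**Figure D3:**
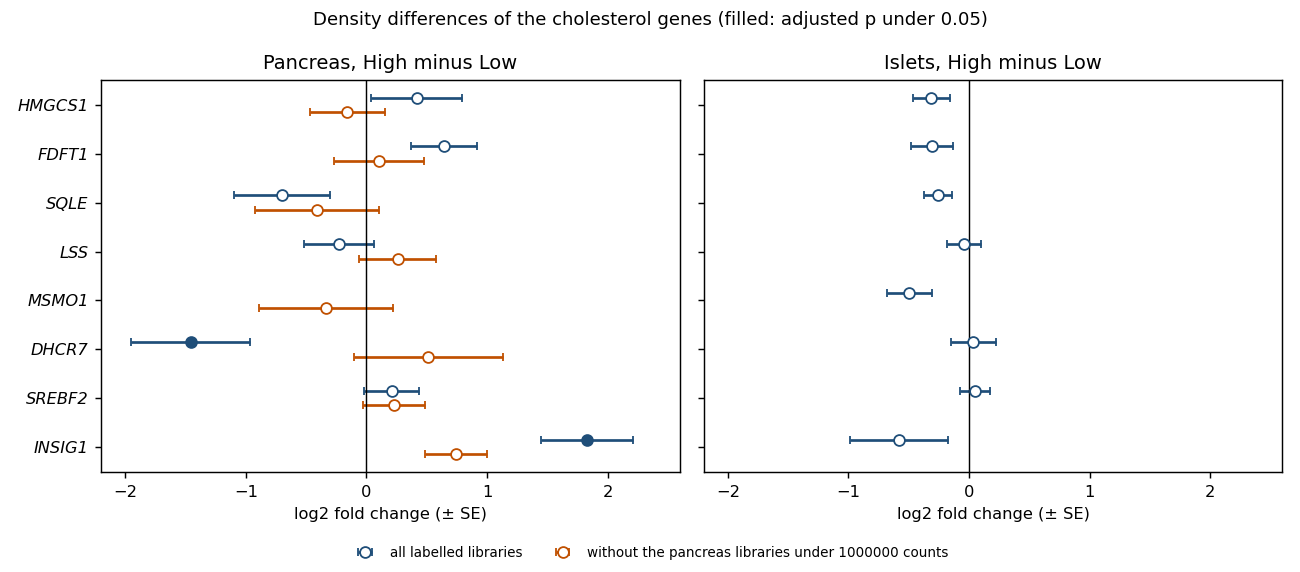
Log2 fold change of High against Low islet density with its standard error for the 8 genes, in pancreas (left, blue for all libraries and orange without the 7 shallow ones) and in islets (right); filled circles passed edgeR's adjusted p of 0.05. INSIG1 stands at 1.83, 0.74 and -0.58 in these fits, and MSMO1 has no blue mark in pancreas because it was not tested there.

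The third comparison was High against Low density in cultured islets, over 17 libraries of similar depth. None of the 8 genes passed edgeR's adjusted p of 0.05, and nor did any of the 12070 genes tested, a background of 0%. At an unadjusted p under 0.05, 257 genes and 2 of the 8 (MSMO1 and SQLE) were found, and DESeq2 and limma-voom also called 0 genes. MSMO1 ran from 9.27 through 18.6 to 28.1 CPM in High islets and from 16.7 through 24.2 to 45.0 CPM in Low (log2 -0.49, SE 0.19). SQLE ran from 13.6 through 26.7 to 31.9 CPM in High and from 25.8 through 32.2 to 43.1 CPM in Low (log2 -0.25, SE 0.12). In both genes the High and Low ranges overlapped.

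HMGCS1 ran from 24.7 through 76.5 to 87.2 CPM in High islets and from 73.1 through 93.4 to 136 CPM in Low (log2 -0.31, SE 0.15). FDFT1 ran from 26.9 through 51.2 to 67.4 CPM in High and from 43.8 through 56.3 to 98.5 CPM in Low (log2 -0.31, SE 0.18). INSIG1 ran from 14.2 through 27.3 to 50.8 CPM in High and from 20.2 through 31.3 to 95.4 CPM in Low (log2 -0.58, SE 0.41). The ranges of all 3 overlapped, and the lowest CPM of HMGCS1, FDFT1, SQLE and MSMO1 among the labelled islets were all in the library of 15AS28, in which 10 genes held 52.3% of the counts. On TMM-scaled CPM of this islet fit the lowest was 15AS28 for HMGCS1, but 16CS60 for FDFT1 and 11KS28 for MSMO1. For SQLE it was 12FS161, by 22.3 against 22.5 in 15AS28. With the scaling of the tissue fit that order turned, with SQLE at 16.48 in 15AS28 and 16.98 in 12FS161. LSS (log2 -0.04, SE 0.14), DHCR7 (0.04, SE 0.19) and SREBF2 (0.05, SE 0.12) had nearly equal levels, with median CPM of 30.9, 6.03 and 97.0 in High and 36.8, 5.87 and 106 in Low. Of the other pathway genes SREBF1 at 0.21, SCAP at -0.10 and INSIG2 at 0.02, with edgeR adjusted p = 0.999 for each of these and for all 8 genes.

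Within the Low islets, the animals whose code begins with 14HS held high values; they were singled out after the values were seen. INSIG1 was at 95.4 CPM in 14HS26, 94.5 in 14HS27 and 74.1 in 14HS7, and at 14.2 to 50.8 CPM in the other 14 labelled islet libraries. FDFT1 was at 98.5, 95.2 and 74.1 CPM in the same order, and at 26.9 to 67.4 CPM in the other 14. HMGCS1 was at 105, 136 and 99.9 CPM, and at 24.7 to 95.3 CPM in the other 14. These 3 libraries thus held the 3 highest CPM values of INSIG1, FDFT1 and HMGCS1, as they did for 43 of 12070 genes tested (0.356%); none of the 8 had its 3 lowest values there, as 5 genes did (0.0414%). On TMM-scaled CPM this was still so for INSIG1 and FDFT1, but for HMGCS1 the library of 15LS29 came above that of 14HS7. SQLE, MSMO1 and DHCR7 overlapped between the 3 libraries and the rest, and LSS and SREBF2 in these libraries lay inside the range of the others. The islets of the other code-14 animals, 14BS54, 14ES72 and 14ES73, had 20.2 to 20.9 CPM of INSIG1. Leaving the 3 libraries out turned the islet density difference of INSIG1 to 0.33 and that of FDFT1 to 0.04.

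**Figure D4:**
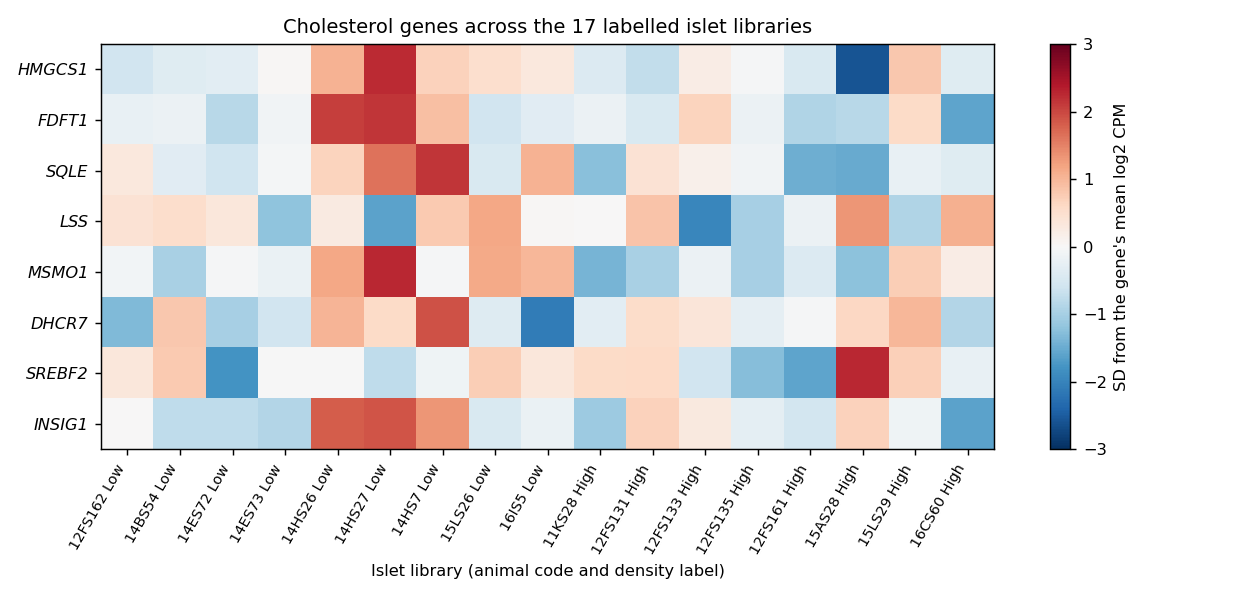
Standardised log2 TMM-scaled CPM of the 8 genes (rows) in the 17 islet libraries with a density label (columns), where 0 is a gene's mean over the libraries and 1 is 1 standard deviation. INSIG1 and FDFT1 are highest in the 3 libraries of the 14HS animals, and HMGCS1 is lowest in 15AS28 (-2.59).

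Whether density differences depended on the tissue was tested directly, as the High minus Low difference in islets less that in pancreas. INSIG1 (log2 -2.52, SE 0.57, edgeR adjusted p = 0.00105) and FDFT1 (log2 -1.13, SE 0.35, edgeR adjusted p = 0.0102) passed, 2 of 8 where 39.9% of 14337 genes did, 17.7% with the less positive and 22.2% with the more positive difference in islets. Of the genes that passed, 55.7% had the more positive difference in islets, against 70.5% with upper-quartile scaling and 81.6% with library totals alone. Both had a positive High minus Low value in pancreas and a negative one in islets. Without the shallow pancreas libraries they were at -1.41 (edgeR adjusted p = 0.352) and -0.51 (edgeR adjusted p = 0.628), and neither passed. With the animal as a block, INSIG1 was at -3.90, FDFT1 at -1.95, MSMO1 at -2.16 and HMGCS1 at -1.64, and all 4 passed, where 42.6% of 14973 genes did. DHCR7 was at 1.06 (edgeR adjusted p = 0.0705) and HMGCS1 at -0.84 (edgeR adjusted p = 0.0782) without the block; MSMO1 was at -0.84, SREBF2 at -0.43, SQLE at 0.18 and LSS at -0.12.

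The 8 genes did not vary as a unit among islets. Over the 17 labelled islet libraries, Pearson's r of each gene with the mean of the other 7 was 0.75 for INSIG1, 0.73 for FDFT1, 0.63 for SQLE, 0.48 for HMGCS1, 0.47 for MSMO1 and 0.41 for DHCR7, but -0.02 for SREBF2 and -0.25 for LSS. The median r over pairs of the 8 was 0.20. These values describe libraries that share depth and composition effects, and they rest in part on 4 of them, since without 15AS28 and the 14HS animals INSIG1 was at 0.41, FDFT1 at 0.39 and DHCR7 at 0.012, while SREBF2 was at 0.49, the highest of the 8. The genes most like the mean of the 8 over all 18 islet libraries were TUFT1 (r = 0.85), ELF1 (0.80), KLF3 (0.76) and CITED2 (0.75), followed by ISG12(A), CDKN2AIP, SIAH2, TWF2, SERTAD2 and CTNND1. The 10542 genes compared held 47 genes of the other pathway lists. Of these, 1, ACAT2, was among the 100 most alike, and NSDHL, SCD and SC5D were at ranks 109, 121 and 145. Without the 12AS51 islets PARD6B (r = 0.835), TUFT1 (0.81) and SIAH2 (0.81) led, ACAT2 was at rank 107 and SCD, at rank 85, was the 1 list gene among the 100. Without 15AS28 and the 14HS animals as well, none was, and none of the 10 genes named from all 18 libraries was still among the first 10. In pancreas 4 of the 8 (FDFT1, LSS, INSIG1 and SREBF2) were abundant enough for this, with a median pairwise r of -0.29, and the genes most like their mean were RASSF4 (r = 0.79), ZDHHC20 (0.78) and ZCCHC8 (0.78).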

How the data were processed

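Read counts per Ensembl pig gene were deposited by the authors in 2 tables, for pancreas and for islets; HISAT2 2.0.2, FastQC, Subread, edgeR and the build susScr3 are named, without roles, per the submitters' processing notes. Whether counting used strand is not given in the sources used here, so reads of overlapping genes cannot be told apart. Of 36 columns, 35 matched a sample title and 1 was not used; the islets of 15LS27 and 15LS30 were not analysed here. Symbols were matched for 14857 of 25880 IDs. Of 128 pairs of libraries within a group, none held identical counts.

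Counts were tested with edgeR 4.0.16 (filterByExpr, TMM, robust quasi-likelihood F-test, Benjamini-Hochberg adjusted p under 0.05 over all genes tested) in R 4.3.3: tissue over all 35 libraries, density within each tissue over labelled libraries, and their interaction. CPM used library totals. Alternatives were DESeq2 1.42.0, limma 3.58.1 voom, other scalings and filters, the animal as a block (pairs come from the labels' animal codes), covariates and left-out libraries. The code was tested on simulated data. The 8 genes and the lists were chosen with earlier results of these data known. Named from each list were up to 5 genes per direction with the largest change among those passing, besides SREBF1, SCAP and INSIG2, and the 10 genes most correlated with the mean of the 8. The floor of 3 counts covers counting error only. Some genes of the pathway are not reported here and were left out of the lists.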

Additional observations from a re-analysis of the deposited data

Results flagged for a closer look

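HMGCS1 in the High islets of 15AS28 was at 24.7 CPM, where the other 7 High islet libraries had 67.8 to 87.2 CPM, a gap large for the spread of the group. These checks used CPM of library totals, and in this library 10 genes held 52.3% of the counts. On TMM-scaled CPM it was at 40.9, with a median of 71.65 and a highest value of 98.7 in High islets. MSMO1 in the Low pancreas of 15LS30 was at 13.3 CPM, above the other 8 Low pancreas libraries, which had 0 to 3.37 CPM on 0 to 5 counts. Islet markers summed to 15736 CPM in that library and to at most 3337 CPM in the other pancreas libraries, and their part in its MSMO1 level was not tested. LSS in the Low pancreas of 14HS7 was at 101.6 CPM on 31 counts, above the other 8 at 13.9 to 52.8 CPM. The 8 genes in 4 groups gave 32 such checks, and chance alone marks about 1 in 20 of them. The High minus Low difference in islets less that in pancreas passed the test for INSIG1 (log2 -2.52) and for FDFT1 (log2 -1.13). Neither passed without the shallow pancreas libraries, and what part depth has in them was not tested further.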

How the results depend on the processing

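In the tissue comparison the number of the 8 genes called was 4 to 7 against 6 under every alternative run, and 6 to 7 with any 1 library left out. HMGCS1, MSMO1, SQLE and SREBF2 kept their direction under all of them. Without a low-count filter FDFT1 was at 0.25, SREBF1 at 0.093 and INSIG2 at 0.076; with library totals alone they were at 0.47, 0.11 and 0.35. With acinar level as a covariate FDFT1 was at 2.04 (SE 0.779), INSIG1 at 3.32 (SE 1.45) and INSIG2 at 1.99 (SE 1.14). In that fit SQLE, SREBF2 and LSS lost their calls, and DHCR7 passed (-4.04, SE 0.966, edgeR adjusted p = 0.000684). The fit cannot tell tissue from acinar content, because acinar level separates the tissues almost as the labels do. DHCR7 also passed with upper-quartile scaling (-0.73, edgeR adjusted p = 0.0408), with the code factor (-0.59, edgeR adjusted p = 0.0498) and without the pancreas of 12FS133, 15LS26 or 12FS161. FDFT1 passed without the code-14 animals (-0.54, edgeR adjusted p = 0.0129), INSIG2 without the shallow libraries (-0.46, edgeR adjusted p = 0.0422) and SREBF1 among Low libraries (-0.72, edgeR adjusted p = 0.0204). Among Low libraries FDFT1 was at 0.46 and INSIG2 at 0.27; among High libraries DHCR7 was at 0.017. DHCR7 was at 0.087 without the shallow libraries, and at 0.086 without them and the 12AS51 islets. With the animal as a replicate block INSIG2 was at 0.022.

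For density in pancreas, where 2 of the 8 were called, limma-voom called 1, and none was called without the shallow libraries, without the code-14 animals, with the code's leading digits as a factor or with the acinar covariate; leaving out single libraries gave 1 to 3. Over all genes, where 4283 were called, these last 4 fits called 0, 0, 368 and 0, while no filter called 10836, a filter at 1 CPM 7587, library totals alone 2542 and animals labelled alike in islets and pancreas 2828. Without the shallow libraries HMGCS1 was at -0.16, LSS at 0.26, DHCR7 at 0.51, SCAP at 0.075 and CYP51A1 at -0.43. Without the code-14 animals LSS was at 0.17, SCAP at 0.018 and CYP51A1 at -0.21. With the code factor HMGCS1 was at -0.16, SREBF2 at -0.12 and CYP51A1 at -0.29. With the acinar covariate HMGCS1 was at -0.41, FDFT1 at -0.029, DHCR7 at 0.55, SREBF1 at 0.10, SCAP at 0.18, INSIG2 at -0.13 and CYP51A1 at -0.70. Without a filter LSS was at 0.28 and SCAP at 0.34; with a filter at 1 CPM LSS was at 0.16 and SCAP at 0.20. Among animals labelled alike in islets and pancreas SREBF2 was at -0.24. With single libraries left out, LSS ranged from -0.38 to 0.014 and SCAP from -0.27 to 0.025.

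For density in islets no alternative called any of the 8. Without the code-14 animals FDFT1 was at 0.030, INSIG1 at 0.082 and SREBF2 at -0.084. Without the 14HS animals, an alternative chosen after seeing the data, FDFT1 was at 0.040 and INSIG1 at 0.33; without 15AS28 too, FDFT1 was at 0.061, INSIG1 at 0.22 and SREBF2 at -0.079. By the label of the animal's pancreas LSS was at 0.31 and DHCR7 at -0.16, and among animals labelled alike in islets and pancreas they were at 0.0046 and -0.12. With library totals alone, also chosen after seeing the data, DHCR7 was at -0.059 and SREBF2 at -0.088; with the code factor SREBF2 was at -0.067. With single libraries left out, LSS ranged from -0.097 to 0.025, DHCR7 from -0.027 to 0.14 and SREBF2 from -0.043 to 0.11.

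For the interaction, where 2 were called, none was called without the shallow libraries, without the code-14 animals or with the acinar covariate. Library totals alone called 1, no filter called 4, and the animal as a replicate block called 4; leaving out single libraries gave 2 to 5, the 5 without the pancreas of 15LS30. DHCR7 passed with RLE scaling (1.27), DESeq2 (1.30), upper-quartile scaling (1.40) and the code factor (1.19), SREBF2 with no filter (-0.90), and HMGCS1 with no filter (-1.25), a filter at 1 CPM (-0.99) and limma-voom (-1.11), and also without genes above 5% of a library. LSS was at 0.054 with RLE scaling, 0.048 with DESeq2, 0.17 with upper-quartile scaling and 0.062 with library totals alone. SQLE was at -0.23 without a filter, and DHCR7 at -0.54 without the shallow libraries. With single libraries left out, SQLE ranged from -0.0094 to 0.34 and LSS from -0.30 to 0.012. Over all genes, where 5718 were called, the shallow libraries' removal left 61, that of the code-14 animals 9, the acinar covariate 1263 and no filter 8812; in the tissue comparison no filter called 15012 against 7726. The cause of these shifts was not tested. In the shallow libraries counts of 0 to 31 for the 8 genes limit what can be seen.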
